A study of Mus musculus with 4 samples.

Results

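The phagocyte NADPH oxidase and the enzymes that remove its products were followed as 9 genes, picked out by gene symbol, with earlier results of these data known, among the 54532 genes of a read count table. The genes were Cybb, Cyba, Ncf1, Ncf4 and Rac2 of the oxidase and Sod2, Cat, Gpx1 and Hmox1 of the antioxidant enzymes. All 9 were found on 1 row each and passed the minimum of 10 counts in any library, as 16369 genes did. The fewest reads on any of them were the 446 of Cat in the sFD17 library.

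The RNA came from CD11b+Ly6g+ myeloid-derived suppressor cells (MDSCs) sorted from the lungs of C57BL/6 mice of 6 to 8 weeks with a pre-metastatic niche (PMN), a lung changed by tumor products before metastases grow there. All 4 groups were injected in the abdomen with 300 μl per mouse of MCM, the conditioned medium of the mouse melanoma line B16F10, on each of 10 days in a row, followed on day 7 by 100000 B16F10 cells into a tail vein. The control group (Ctrl) got no peptide. The other groups got TP5, sFD17 or FR17 under the skin at 40 μM/kg each day from day 3, and lungs were taken on day 10. TP5 is the free immunomodulatory pentapeptide thymopentin. FR17 joins TP5, through a linker cut by the protease MMP2, to a short peptide that assembles once released, and sFD17 has the same build with the pentapeptide scrambled. The cells of 10 to 12 mice were pooled into 1 library per group, so a difference between groups has no replicate check, and mice, sort and library cannot be told apart from the treatment.

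The oxidase of neutrophils and related cells takes electrons from NADPH and passes them across a membrane to oxygen, which gives superoxide. Its membrane core waits for cytosolic subunits and a small GTPase before it works. Superoxide is turned into hydrogen peroxide by superoxide dismutases, and the peroxide is then removed by catalase, glutathione peroxidases and peroxiredoxins. MDSCs use reactive oxygen species as one of their means of restraining T cells.

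The libraries held 15543071 to 19638228 counts. Counts were divided by TMM-scaled library sizes, which equalize the bulk of genes, and are given as scaled CPM, a gene's share of its library's reads on the customary CPM scale. An interval marked as a counting interval is an exact 95% interval that covers counting error only. Itgam, which encodes CD11b, had 5711 to 6924 counts and Ly6g had 1234 to 2081, so both sort markers were present in every library. The summed level of 16 macrophage markers relative to Ctrl was 0.847 with TP5, 0.50 with sFD17 and 1.23 with FR17, and that of 16 neutrophil markers was 1.11, 1.32 and 0.901. Without Lyz2, its most abundant gene, the macrophage sum relative to Ctrl was 0.755, 0.376 and 1.24. None of these 32 marker genes was at 0 in any library. Among the marker lists for other cell types, the sums relative to Ctrl ran from 0.268 for platelet markers with sFD17 to 3.14 for those of eosinophils, mast cells and basophils with FR17. Of the platelet counts, Pf4 alone held 1733 of 1881 in Ctrl and 247 of 394 in sFD17. Epithelial markers were at 2.02 with sFD17, where Scgb1a1 alone held 16131 of their 17394 counts. These cell types carry oxidase and antioxidant genes of their own, and the part of such markers in the differences below was not tested. In bulk RNA, fewer cells of a type and less RNA per cell cannot be told apart.

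Per kilobase of annotated exon, the oxidase and antioxidant genes covered a wide range of levels. Cyba had the highest mean over the 4 libraries, 493 scaled CPM per kb, which was rank 94 among the tested genes. Gpx1 had 461, Rac2 285, Ncf1 182, Ncf4 155, Cybb 131 and Hmox1 88.2 scaled CPM per kb. Sod2 and Cat were lowest, at 19.4 each, with ranks 2326 and 2338. For Sod2 the length was 10008 bases, the union of its annotated exons, so its level per kb would be higher if most transcripts were shorter. The ranges over the 4 libraries overlapped between the neighbours Cyba and Gpx1, Ncf1 and Ncf4, Ncf4 and Cybb, and Sod2 and Cat. They did not overlap between Gpx1 and Rac2, Rac2 and Ncf1, Cybb and Hmox1, or Hmox1 and Sod2.

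**Figure D1:**
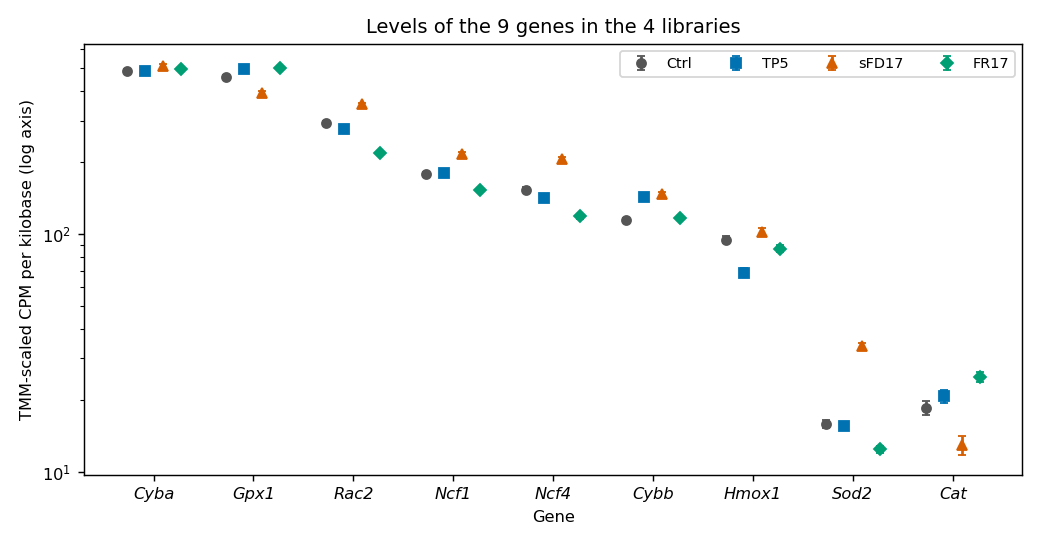
Scaled CPM per kb (log axis) of each of the 9 genes in the Ctrl, TP5, sFD17 and FR17 libraries, drawn in a single panel. Bars are exact 95% Poisson intervals for counting error. Sod2 stood at 33.8 in sFD17 against 12.4 to 15.9 in the other libraries. Cat was lowest in sFD17 at 12.9, and Cyba lay between 485 and 509 in all 4.

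With TMM scaling, Sod2 was the only one of the 9 genes past a 2-fold difference in any of the 6 comparisons between libraries, and with library size alone or equal neutrophil markers it was not past it in any, while Cat was in FR17 against sFD17. It encodes the manganese superoxide dismutase of mitochondria (ENSMUSG00000006818, GRCm38 chromosome 17, 13006846 to 13040063, plus strand, protein coding). Its level was 159 scaled CPM in Ctrl, 156 with TP5, 339 with sFD17 and 125 with FR17, from 2688, 2739, 4469 and 2859 counts. The sFD17 library was thus far above the other 3, whose counting intervals together ran from 120.0 to 165. Sod2 rose in sFD17 against Ctrl by 1.09 on the log2 scale (counting interval 1.02 to 1.16), but by 0.87 with library size alone and by 0.69 with neutrophil markers set equal, both under 2-fold. Against TP5 the rise in sFD17 was 1.12 (1.05 to 1.19). FR17 against sFD17 gave −1.44 on the log2 scale (−1.51 to −1.37), and −0.98 or −0.89 under those 2 other scalings, again under 2-fold. FR17 against Ctrl gave −0.35 (−0.43 to −0.28) and TP5 against Ctrl −0.03 (−0.10 to 0.05), and the TP5 value changed sign with library size alone.

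The count of these genes past 2-fold was 1 of 9 in sFD17 against Ctrl, where 11.8% of all tested genes passed, 1 of 9 in sFD17 against TP5, where 12.4% passed, and 1 of 9 in FR17 against sFD17, where 22.1% passed. It was 0 of 9 in TP5 against Ctrl (8.18% of all genes), in FR17 against Ctrl (7.50%) and in FR17 against TP5 (9.92%). These shares over all genes include many with few reads. Among the 4493 genes with at least 400 counts in every library, as all 9 had, the shares past 2-fold were 3.29% in sFD17 against Ctrl, 3.85% in sFD17 against TP5, 13.9% in FR17 against sFD17, 0.334% in TP5 against Ctrl, 0.913% in FR17 against Ctrl and 0.690% in FR17 against TP5. By edgeR's exact test at an unadjusted p under 0.05, with a dispersion over the 4 libraries, Sod2 was called in the same 3 comparisons and Cat also in FR17 against sFD17. That test sets 1 library against another with a spread that counts the treatments as replicates, so it is no test of a condition. It called 4.79%, 4.59% and 12.6% of all genes in sFD17 against Ctrl, sFD17 against TP5 and FR17 against sFD17, and 0 of the 9 in TP5 against Ctrl (1.98%), FR17 against Ctrl (1.83%) and FR17 against TP5 (3.65%).

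A looser limit of 1.5-fold was passed by Sod2 in sFD17 against Ctrl (1 of 9, beside 29.0% of all genes), by Sod2 and Cat in sFD17 against TP5 (2 of 9, 31.8%) and by Sod2, Cat, Ncf4 and Rac2 in FR17 against sFD17 (4 of 9, 46.0%). It was passed by 0 of 9 in TP5 against Ctrl (20.8%), FR17 against Ctrl (22.7%) and FR17 against TP5 (24.5%). Among the 4493 genes of like abundance the shares past 1.5-fold were 12.8%, 17.0% and 38% in the first 3 of these comparisons and 3.34%, 11.7% and 8.03% in the last 3.

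Ratios of reads between 2 genes of the same library do not depend on how libraries are scaled, and the pairs given here were chosen after their values were seen. Sod1, the cytosolic superoxide dismutase, had 1578, 1830, 1143 and 2330 counts in Ctrl, TP5, sFD17 and FR17. Sod2 over Sod1, per kb, was 0.676 in Ctrl (counting interval 0.635 to 0.720), 0.594 with TP5, 1.55 with sFD17 (1.45 to 1.66) and 0.487 with FR17. In plain reads, without the division by length, Sod2 over Sod1 was 1.70, 1.5, 3.91 and 1.23, so the sFD17 library was highest on either scale. Gpx1 over Sod2 was 28.8, 31.7, 11.5 and 40.2, and Cat over Sod2 was 1.17, 1.34, 0.382 and 2.02, in the same order of libraries. As mRNA, both peroxide-removing enzymes were thus in their lowest proportion to the mitochondrial dismutase in sFD17 and in their highest in FR17.

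**Figure D2:**
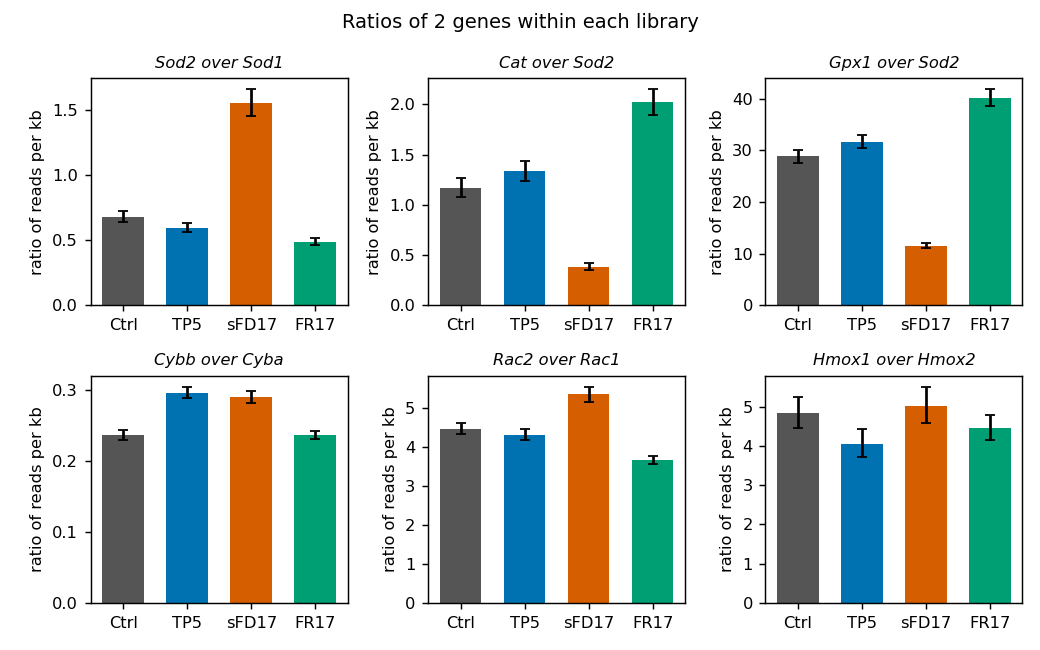
Ratio of reads per kb between 2 genes of the same library (linear axis from 0), for 6 pairs of oxidase and antioxidant genes in Ctrl, TP5, sFD17 and FR17, with 95% counting intervals. Sod2 over Sod1 reached 1.55 in sFD17 against 0.487 to 0.676 elsewhere, and Cat over Sod2 was 0.382 in sFD17 and 2.02 in FR17.

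Cat encodes catalase, the peroxisomal enzyme that splits hydrogen peroxide (ENSMUSG00000027187, chromosome 2, 103453849 to 103485160, minus strand). Its level was 48.7 scaled CPM in Ctrl, 54.4 with TP5, 33.8 with sFD17 and 65.7 with FR17, from 822, 955, 446 and 1508 counts. The counting intervals of sFD17 (30.7 to 37.1) and FR17 (62.4 to 69.1) were apart from each other and from those of the other 2 libraries, while those of Ctrl (45.4 to 52.1) and TP5 (51.0 to 58.0) met. On the log2 scale Cat differed from Ctrl by 0.16 with TP5 (0.03 to 0.30), −0.52 with sFD17 (−0.70 to −0.36) and 0.43 with FR17 (0.31 to 0.56). FR17 against sFD17 gave 0.96 (0.81 to 1.11), just under 2-fold, and 1.42 with library size alone or 1.5 with neutrophil markers set equal, both past it. The direction of Cat was the same under every scaling tried in all 6 comparisons. Of the macrophage markers, 0 of 16 were higher than Ctrl in sFD17 and 14 of 16 in FR17, the libraries where Cat was lowest and highest.

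The 250 bases before the annotated starts of Sod2, Cat and Cybb are shown because Sod2 and Cat had the widest spread over the libraries of the 9 genes, 2.72 and 1.94 times from lowest to highest, and Cybb encodes the catalytic core of the oxidase. The starts are those of RefSeq, which for all 3 lie inside the gene spans printed here from the count table. The sequences are from a set of RefSeq promoters on GRCm38.p6, and that set held 6 of the 9 genes (Cat, Ncf1, Cyba, Gpx1, Sod2 and Cybb). Capitals mark matches, on either strand, to any of 6 motifs: the GC box GGGCGG, the CCAAT box CCAAT, a kappaB site (GGG, any 2 bases, TTTCC), an interferon-stimulated response element (GAAA, any 2 bases, GAAA), an antioxidant response element TGACNNNGC and an AP-1 site TGANTCA. The Sod2 window is chr17:13007589-13007838 on the plus strand, with 22 bases in an annotated Sod2 exon, the Cat window is chr2:103485154-103485403 on the minus strand, with 7 bases in a Cat exon, and the Cybb window is chrX:9469325-9469574 on the minus strand, outside exons.
Sod2: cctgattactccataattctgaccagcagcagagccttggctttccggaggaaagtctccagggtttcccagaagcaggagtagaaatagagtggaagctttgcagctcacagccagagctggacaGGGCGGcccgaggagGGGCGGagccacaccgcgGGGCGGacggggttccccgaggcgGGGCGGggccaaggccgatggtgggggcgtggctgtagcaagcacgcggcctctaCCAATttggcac
Cat: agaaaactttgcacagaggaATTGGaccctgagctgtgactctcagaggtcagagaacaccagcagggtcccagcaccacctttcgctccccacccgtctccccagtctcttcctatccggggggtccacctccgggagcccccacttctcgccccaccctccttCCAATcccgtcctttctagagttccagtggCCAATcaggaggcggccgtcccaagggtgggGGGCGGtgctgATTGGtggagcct
Cybb: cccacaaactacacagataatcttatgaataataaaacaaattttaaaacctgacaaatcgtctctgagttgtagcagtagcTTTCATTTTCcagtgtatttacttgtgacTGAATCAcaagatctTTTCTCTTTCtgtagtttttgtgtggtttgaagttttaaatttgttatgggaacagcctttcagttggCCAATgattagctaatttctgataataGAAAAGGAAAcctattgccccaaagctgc

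The Sod2 window held 4 GC boxes, beginning 124, 109, 91 and 67 bases before the start, and 1 CCAAT box. The Cat window held 4 CCAAT boxes and 1 GC box. The Cybb window held 3 interferon-stimulated response elements, beginning 168, 124 and 29 bases before the start, with 1 AP-1 site and 1 CCAAT box. Over 32851 promoters of the same length, 32.7% had a GC box, 33.8% a CCAAT box, 2.98% an interferon-stimulated response element, 6.75% an AP-1 site, 10.2% an antioxidant response element and 1.41% a kappaB site. The letters searched for the last 2 were found in 0 of the 6 windows. Windows of Ncf1 (1 GC box, 1 interferon-stimulated response element), Cyba (2 GC boxes) and Gpx1 (no match) are not printed. GC content was 63.6% for Sod2, 62.0% for Cat and 34.0% for Cybb, against a median of 52.4% over all promoters. Such matches describe letters and not sites in use.

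Gpx1 and Hmox1 differed less between libraries. Gpx1 encodes the main cytosolic glutathione peroxidase (ENSMUSG00000063856, chromosome 9, 108338903 to 108340343, plus strand). It had 660 scaled CPM in Ctrl, 712 with TP5, 563 with sFD17 and 721 with FR17, from 11154, 12489, 7427 and 16546 counts, so sFD17 was the lowest library for Gpx1 as it was for Cat. Against Ctrl its log2 differences were 0.11 with TP5, −0.23 with sFD17 and 0.13 with FR17. The TP5 value turned negative with neutrophil markers set equal, while the sFD17 and FR17 values kept their signs under every scaling. Gpx1 over Gpx4, which encodes the peroxidase for lipid peroxides, was 5.25, 5.98, 5.11 and 5.95 per kb in Ctrl, TP5, sFD17 and FR17.

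Hmox1 encodes heme oxygenase 1, the inducible enzyme that opens heme and releases iron, carbon monoxide and biliverdin (ENSMUSG00000005413, chromosome 8, 75093621 to 75100589, plus strand). Its level was 166 scaled CPM in Ctrl, 121 with TP5, 179 with sFD17 and 152 with FR17, from 2806, 2114, 2363 and 3489 counts. Here TP5, not sFD17, was the library that stood apart, with a counting interval of 115 to 126 against 147 to 186 over the other 3. TP5 against Ctrl gave −0.46 on the log2 scale (−0.55 to −0.38) and from −0.61 to −0.41 under the other scalings. The sFD17 value against Ctrl was 0.11 and the FR17 value −0.13, and both changed sign with library size alone. Markers of red blood cells, which are rich in heme, summed to 23.2 scaled CPM in Ctrl, 10.8 with TP5, 14.4 with sFD17 and 36.8 with FR17, with Klf1 at 0 in Ctrl, and their part in the Hmox1 values was not tested. Hmox2, the constitutive heme oxygenase, had 735, 661, 596 and 991 counts, and Hmox1 over Hmox2 was 4.83, 4.05, 5.02 and 4.46 per kb. Hmox2 shares 892 exon bases with Cdip1 on the other strand.

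The genes of the membrane core were Cybb and Cyba. Cybb encodes gp91phox, the catalytic subunit that holds the electron path (ENSMUSG00000015340, chromosome X, 9435252 to 9487771, minus strand). It had 667 scaled CPM in Ctrl, 834 with TP5, 857 with sFD17 and 677 with FR17, from 11261, 14621, 11309 and 15541 counts. With TMM scaling TP5 and sFD17 were thus the high pair and Ctrl and FR17 the low pair. The log2 difference from Ctrl was 0.32 with TP5 (0.29 to 0.36), 0.36 with sFD17 (0.32 to 0.40) and 0.02 with FR17 (−0.01 to 0.06), and the sFD17 value turned negative with neutrophil markers set equal.

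Cyba encodes p22phox, the partner that stabilizes gp91phox in the membrane (ENSMUSG00000006519, chromosome 8, 122424776 to 122432930, minus strand). It had 505, 504, 529 and 513 scaled CPM in Ctrl, TP5, sFD17 and FR17, from 8527, 8834, 6980 and 11769 counts. The highest library was 1.05 times the lowest, a spread smaller than that of all but 0.525% of the 6289 genes with at least 200 counts in every library. With library size alone the spread was 1.33 times for Cyba and 1.3 for Cybb, more than for Ncf4 (1.26), Rac2 (1.16) or Ncf1 (1.05), so the evenness of Cyba rests on the scaling. Cybb over Cyba, free of that choice, was 0.236 per kb in Ctrl and in FR17, 0.296 in TP5 and 0.290 in sFD17. The counting intervals of TP5 (0.288 to 0.304) and sFD17 (0.281 to 0.299) lay above those of Ctrl (0.230 to 0.243) and FR17 (0.231 to 0.242).

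The cytosolic genes Ncf1, Ncf4 and Rac2 were highest in sFD17 and lowest in FR17 with TMM scaling. With library size alone this still held for Ncf4 and Rac2, but not for Ncf1, and with equal neutrophil markers it held for none of them. Ncf1 encodes p47phox, the organizer that carries the cytosolic complex to the membrane (ENSMUSG00000015950, chromosome 5, 134220053 to 134229625, minus strand). It had 653 scaled CPM in Ctrl, 662 with TP5, 797 with sFD17 and 560 with FR17, from 11034, 11607, 10517 and 12856 counts. Gtf2ird2 on the other strand shares 408 exon bases with Ncf1 and had 1912, 1826, 1689 and 1668 counts in Ctrl, TP5, sFD17 and FR17, and use of the strand in counting is not given in the sources used here. The log2 difference from Ctrl was 0.02 with TP5, 0.29 with sFD17 and −0.22 with FR17. The FR17 value turned positive with library size alone, and the TP5 and sFD17 values turned negative with neutrophil markers set equal.

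Ncf4 encodes p40phox, which binds a phagosome lipid and sustains oxidase activity there (ENSMUSG00000071715, chromosome 15, 78244801 to 78262580, plus strand). It had 311, 286, 416 and 240 scaled CPM in Ctrl, TP5, sFD17 and FR17, from 5254, 5019, 5496 and 5507 counts, and no counting intervals of these 4 levels overlapped. Against Ctrl the log2 differences were −0.12 with TP5, 0.42 with sFD17 and −0.37 with FR17, each with the same sign under every scaling. FR17 against sFD17 gave −0.80 (−0.85 to −0.74).

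Rac2 encodes the GTPase that switches the oxidase on in blood cells (ENSMUSG00000033220, chromosome 15, 78559167 to 78572783, minus strand). It had 912, 854, 1089 and 682 scaled CPM in Ctrl, TP5, sFD17 and FR17, from 15413, 14987, 14369 and 15658 counts, with FR17 clearly lowest. Against Ctrl the log2 differences were −0.09 with TP5, 0.25 with sFD17 and −0.42 with FR17. The sFD17 value turned negative with neutrophil markers set equal, and the others kept their signs. Rac2 over Rac1, its widely expressed paralog, was 4.46 per kb in Ctrl, 4.31 with TP5, 5.34 with sFD17 (5.16 to 5.54) and 3.66 with FR17 (3.55 to 3.77). In this ratio, which needs no scaling, sFD17 was highest and FR17 lowest. Rac1 shares 2309 exon bases with Daglb on the other strand, which had 648, 820, 436 and 931 counts in the 4 libraries.

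Abundant genes as a whole leaned the same way as these cytosolic genes. The median log2 difference of the 4493 genes with at least 400 counts in every library was 0.12 in sFD17 against Ctrl and −0.18 in FR17 against Ctrl, where that of all 16369 tested genes was −0.03 and 0.02. The median of the 9 genes was 0.25 in sFD17, which turned negative with equal neutrophil markers, and −0.13 in FR17, which turned positive with them and with library size alone.

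**Figure D3:**
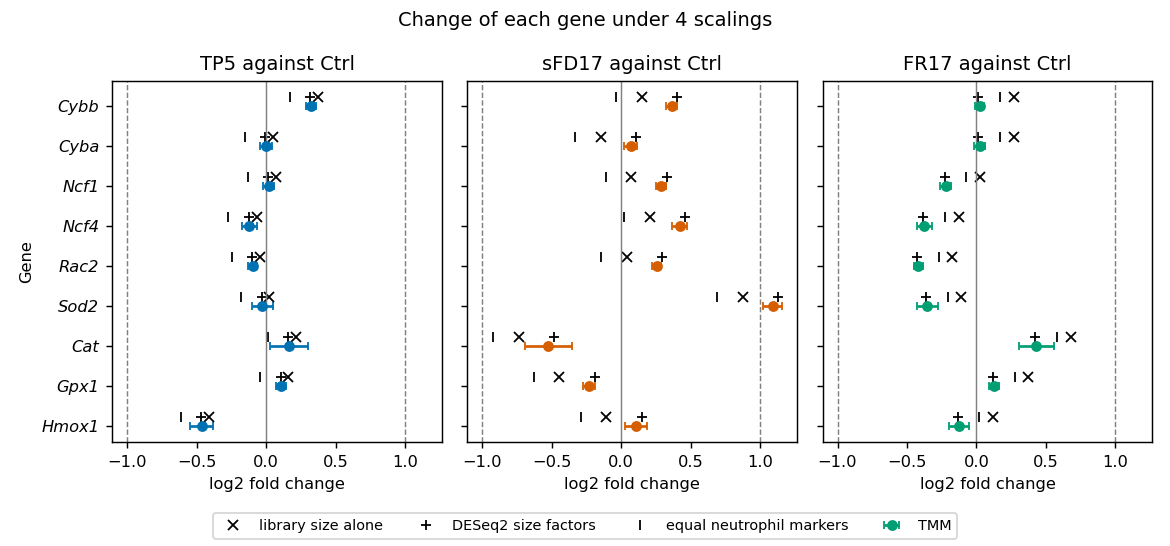
Log2 fold change of each of the 9 genes against Ctrl in TP5, sFD17 and FR17 under 4 scalings, where filled points are TMM values with 95% counting intervals, crosses, plus signs and ticks are the other scalings, and dashed lines mark 2-fold. Sod2 in sFD17 lay past the line with TMM (1.09) and DESeq2 size factors (1.13) and inside it with library size alone (0.87) or equal neutrophil markers (0.69).

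For the peptides that share the assembling build, FR17 and sFD17, and for free TP5, doses and times were matched, so the libraries were also compared with each other. FR17 against sFD17, which differ in the order of the pentapeptide's residues, gave the widest spread, with Sod2 −1.44, Ncf4 −0.80, Rac2 −0.67, Ncf1 −0.51, Cybb −0.34, Hmox1 −0.24, Cyba −0.04, Gpx1 0.36 and Cat 0.96 on the log2 scale. With library size alone Cybb, Cyba and Hmox1 changed sign in this comparison, and with equal neutrophil markers Ncf1 did too. FR17 against TP5, which carry the same pentapeptide with and without the assembling part, ran from −0.33 for Sod2 to 0.33 for Hmox1. Rac2 was −0.32, Cybb −0.30, Cat 0.27, Ncf4 −0.25, Ncf1 −0.24, Cyba 0.03 and Gpx1 0.02 in it, and 0 of these 9 changed sign with library size alone, while Cybb, Ncf1 and Ncf4 did with equal neutrophil markers. In sFD17 against TP5, Sod2 was 1.12, Hmox1 0.57, Ncf4 0.54, Gpx1 −0.34 and Cat −0.69, and Cybb (0.04) and Cyba (0.07) changed sign with library size alone. These comparisons share libraries, so their values are not independent of one another.

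The wider pathway was read from 10 lists that held 102 genes, the 9 genes above among them, and 93 of the 102 were tested. Of the 93, 2 were at least 2-fold higher and 0 lower in TP5 against Ctrl, 4 higher and 3 lower in sFD17, and 3 higher and 3 lower in FR17. The balance rests on the scaling, with 3 higher and 7 lower in sFD17 and 5 higher and 1 lower in FR17 with library size alone. With TMM the counts are 2.15%, 7.53% and 6.45% of the 93, beside 8.18%, 11.8% and 7.50% of all tested genes and 0.334%, 3.29% and 0.913% of those with at least 400 counts in every library. Of the genes in these counts, Noxo1 (6 counts in Ctrl and 17 in TP5), Epx (2, 3, 10 and 29 in Ctrl, TP5, sFD17 and FR17), Hpx (7 in Ctrl and 1 in sFD17) and Nnt (14 in Ctrl and 5 in FR17) rest on few reads, and Epx, Hpx and Nnt are named after their values were seen. Mpo, the myeloperoxidase of neutrophil granules and also one of the neutrophil markers, had 38, 148, 75 and 141 counts and was past 2-fold in all 3 peptide libraries, at 1.86, 1.29 and 1.40 on the log2 scale for TP5, sFD17 and FR17, though at 0.91 for sFD17 with equal neutrophil markers. In FR17 against sFD17, 26 of the 93 passed 2-fold with TMM, 10 higher and 16 lower. Of all tested genes 22.1% passed it, and of those with at least 400 counts in every library 13.9%. The directions rest on the scaling, with 20 higher and 2 lower with library size alone and 23 and 2 with equal neutrophil markers. With DESeq2 size factors they were 10 higher and 18 lower. Without the 9 genes, 84 were tested, and 2, 6 and 6 of them were past 2-fold in TP5, sFD17 and FR17 against Ctrl.

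**Figure D4:**
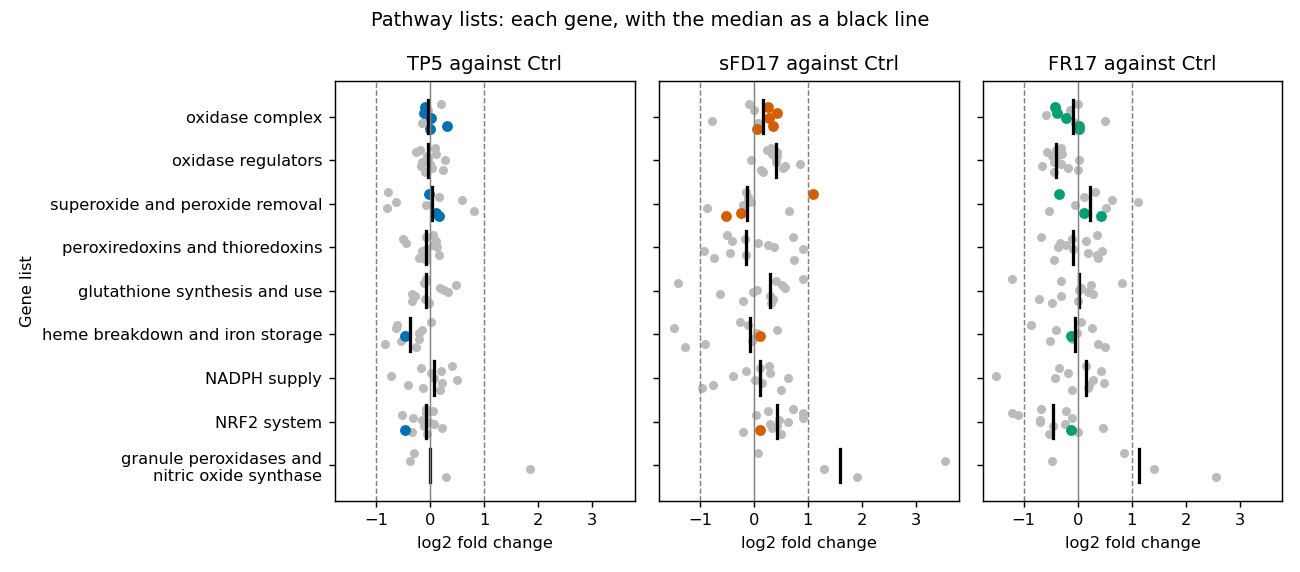
Log2 fold change against Ctrl of every tested gene in each pathway list but that of the other NADPH oxidases, for TP5, sFD17 and FR17. Genes are points (the 9 genes colored), with each list's median as a black line and dashed lines at 2-fold. The oxidase regulators (medians 0.40 in sFD17, −0.39 in FR17) and the NRF2 system (0.42 and −0.45) lay on opposite sides in sFD17 and FR17.

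With TMM scaling the other genes of the oxidase complex varied less than 2-fold against Ctrl, and with equal neutrophil markers 1 of them, Hvcn1 in sFD17 at −1.17, passed it. Hvcn1, the proton channel that balances the charge moved by the oxidase, had 486, 497, 221 and 934 counts in Ctrl, TP5, sFD17 and FR17 and log2 differences from Ctrl of −0.02, −0.78 and 0.50, and it overlaps Tctn1 on the other strand by 1574 bases. The complex of 10 genes had a median of 0.17 in sFD17 and −0.09 in FR17, and both changed sign with library size alone. Of the other NADPH oxidases and their partners, 2 of 9 passed the count minimum, Noxo1 (6, 17, 4 and 12 counts, with 2122 exon bases shared with Tbl3 on the other strand) and Nox4 (25, 12, 19 and 30 counts).

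The regulators that act upstream of the oxidase, among them kinases and exchange factors for Rac, were split between sFD17 and FR17. Of 13 genes, 12 were above Ctrl in sFD17 and 12 below it in FR17, and 0 passed 2-fold in either. Of all 16369 tested genes, 7862 were above Ctrl in sFD17 and 7815 below it in FR17, and abundant genes leaned the way of the regulators, with the medians of 0.12 and −0.18 given above. The counts of regulators were 10 of 13 in each with library size alone, and 7 and 11 of 13 with equal neutrophil markers. Fgr, a Src-family kinase of myeloid cells, was −0.17, 0.57 and −0.66 on the log2 scale in TP5, sFD17 and FR17, and the kinase Syk was −0.26, 0.44 and −0.56.

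The list for removal of superoxide and peroxide, which includes Sod2, Cat and Gpx1, had 10 tested genes. Of these, 8 were below Ctrl in sFD17 and 7 above it in FR17, at medians of −0.13 and 0.22. Among all 16369 tested genes, 8507 were below Ctrl in sFD17 and 8554 above it in FR17. Gpx3, the secreted glutathione peroxidase, was −0.80, −0.86 and 0.53 in TP5, sFD17 and FR17. Gpx7 rose in FR17 by 1.11 on 16 counts in Ctrl and 50 in FR17. Sod1 was 0.16, −0.11 and 0.12 and Gpx4 −0.08, −0.19 and −0.05. Sod2 was thus 1 of the 2 genes of its list above Ctrl in sFD17, and the other was Gpx2 on 19 counts in Ctrl and 24 in sFD17, named after its value was seen. Among peroxiredoxins, Prdx1 was −0.74 and Prdx4 −0.92 in sFD17, while the mitochondrial and peroxisomal Prdx5, which shares 409 exon bases with Trmt112 on the other strand, was 0.91.

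Around Hmox1, 9 of 10 genes of heme breakdown and iron storage were below Ctrl in TP5, at a median of −0.36 and with 0 past 2-fold, beside 8167 of all 16369 tested genes below Ctrl and 8.18% past 2-fold. Markers of some other cells were below Ctrl in TP5, with 14 of 16 for macrophages and 6 of 6 tested for red blood cells. So were 5 of 6 for endothelium and 6 of 6 for fibroblasts. Other lists leaned the other way, with 7 of 8 above Ctrl for dendritic cells and 5 of 6 for B and plasma cells. Monocytes had 6 of 8 above it and epithelium 5 of 7. The part of all these markers in the values here was not tested. With neutrophil markers set equal, 10 of 10 heme and iron genes were below Ctrl in TP5, and with library size alone 9 of 10. Fth1, the ferritin heavy chain, had 116451, 83355, 88714 and 110488 counts in Ctrl, TP5, sFD17 and FR17 and log2 differences of −0.54 with TP5, −0.04 with sFD17 and −0.52 with FR17. Blvrb, a biliverdin reductase, was at −0.84, −0.91 and 0.38, and Slc40a1, the iron exporter ferroportin, at −0.62, −0.10 and −0.86. Blvra, the other biliverdin reductase, fell in sFD17 by 1.28 on the log2 scale, from 387 counts in Ctrl to 124, and had 750 in FR17. In the other libraries the medians were −0.07 in sFD17 and −0.05 in FR17. In sFD17, library size alone also gave 9 of 10 genes below Ctrl, at a median of −0.28, and it turned the median of FR17 positive.

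The NRF2 system holds the transcription factor of the antioxidant response, its partners, regulators and targets. Hmox1 is among them, and so is Bach1, a repressor of Hmox1, so a count of genes above Ctrl is no measure of NRF2 activity. Of the 13 genes in the list, 12 were above Ctrl in sFD17 and 11 below it in FR17. Past 2-fold were 0 in sFD17 and 2 in FR17, beside 11.8% and 7.50% of all tested genes. Among all 16369 tested genes, 7862 were above Ctrl in sFD17 and 7815 below it in FR17. Abundant genes leaned the same way as the list, with the medians of 0.12 and −0.18 given above. With library size alone 10 of 13 were above Ctrl in sFD17 and 7 of 13 below it in FR17, and with equal neutrophil markers 7 and 9 of 13, at a median of 0.02 in sFD17. Nfe2l2, which encodes NRF2, was −0.16, 0.46 and −0.70 in TP5, sFD17 and FR17. Slc7a11, the cystine importer that feeds glutathione synthesis, had 20835, 20617, 30722 and 12218 counts and fell in FR17 by 1.21, or by 0.97 with library size alone, with a difference of 0.92 in sFD17. Osgin1, an oxidative stress response gene, had 5071, 3687, 4080 and 3220 counts and fell in FR17 by 1.10, or by 0.85 with library size alone. Txnrd1, thioredoxin reductase, was 0.72 in sFD17 and −0.68 in FR17.

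Nitric oxide synthase and NADPH supply complete the pathway. Nos2, the inducible synthase, had 13 counts in Ctrl, 10 with TP5, 134 with sFD17 and 12 with FR17, and rose in sFD17 by 3.54 on the log2 scale. It was in the same library as the high Sod2. Mgst3, a microsomal glutathione transferase, fell in sFD17 by 1.40, from 121 counts in Ctrl to 35, with 293 in FR17. Among genes for NADPH supply, Idh1 was −0.97, Idh2 −0.75 and Nadk 0.63 in sFD17, and 0 of the 11 genes of that list passed 2-fold there, beside 11.8% of all genes. Of these, Idh1 did with library size alone, at −1.18, and 2 did with equal neutrophil markers.

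Patterns were also compared over the 3 log2 differences from Ctrl, among 6288 genes with at least 200 counts in every library, by Euclidean distance. Nearest to Sod2 were Cflar at 0.120, Nampt at 0.138 and Nod1 at 0.15, and 10 genes lay within 0.2 of it. Nearest to Hmox1 were H2-K1 at 0.0489, Pam at 0.0624 and B2m at 0.10, with 19 genes within 0.2, and nearest to Cat were Metap2, Rps20 and Eef1d, with 79. For the other 6 genes the number within 0.2 ran from 185 for Cybb to 573 for Cyba, so Sod2 and Hmox1 had the fewest neighbours. Among the 9 themselves the closest pairs were Ncf4 and Rac2 at 0.174, Ncf1 and Rac2 at 0.230 and Ncf1 and Ncf4 at 0.246. With 3 values per gene, such closeness describes these libraries only.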

How the data were processed

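For each of 4 libraries of pooled lung MDSCs, the authors deposited unnormalized counts of reads on each gene. The submitters' processing notes name HISAT2 2.0.5, StringTie 1.3.3b, featureCounts 1.5.0-p3, edgeR 3.18.1 and GRCm38.p6, without their roles. Of the gene identifiers, 53548 have the same coordinates in GENCODE M21.

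The software was edgeR 4.0.16 and DESeq2 1.42.0 in R 4.3.3, and pandas 2.3.3 and scipy 1.17.1. A gene was kept if any library had 10 or more counts for it, which left 16369 genes in libraries of 15543071 to 19638228 counts. Differences were taken between log2 CPM values of edgeR (TMM factors, prior count 2), and a call meant at least a 2-fold change, since 1 library per group allows no test of a condition. Intervals are exact Poisson for a level and exact binomial for a ratio. The script was tested on simulated counts. A symbol on several rows was read from the row with the most counts. The authors' own comparisons were not used.

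The 9 genes, the pathway and marker lists and the comparisons were chosen with earlier results of these data known. Named were the 9 genes, from each pathway list the gene with the most reads per kb and the 3 with the largest change on at least 50 counts, partners of the 9, the top gene of each marker list and, for the 9, the 3 nearest genes in pattern. Some genes that this rule selects are named in no result here.

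Alternatives were DESeq2 size factors, library size alone or without the 10 most abundant genes, equal summed neutrophil markers, no filter on low counts, a prior count of 0.5, a 1.5-fold call, edgeR's exact test with a dispersion over the 4 libraries or a fixed biological coefficient of variation of 0.4, and DESeq2's Wald test. Marker sums without their most abundant gene were added after seeing the data.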

Additional observations from a re-analysis of the deposited data

How the results depend on the processing

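No paired analysis was possible because each group is 1 library, and for the same reason no replicate could be left out. The 9 oxidase and antioxidant genes kept their directions with DESeq2 size factors and with a prior count of 0.5 in all 6 comparisons. The median of all genes (log2) in sFD17 and FR17 against Ctrl was −0.03 and 0.02 with TMM, −0.23 and 0.26 with library size alone, and −0.41 and 0.17 with equal neutrophil markers. No value here has a replicate error, so depth limits only the genes with few reads, such as Epx, Nox4 and Nos2, and the 446 reads of Cat in sFD17 set the widest interval among the 9.

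Of the 9 genes, the 1 past 2-fold in sFD17 against Ctrl and the 1 in sFD17 against TP5 became 0 with library size alone, with library size without the 10 most abundant genes, with equal neutrophil markers, with the exact test at a coefficient of 0.4 and with DESeq2's Wald test. In FR17 against sFD17 the 1 became 2 with no filter, which changes the TMM factors, 2 by the exact test with a dispersion over the 4 libraries, 0 at a coefficient of 0.4 and 4 at 1.5-fold. In sFD17 against TP5 it became 2 at 1.5-fold.

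Of the pathway genes, the 2 in TP5 against Ctrl became 5 with no filter, 12 at 1.5-fold, and 1 by the exact test with either dispersion and by the Wald test. The 7 in sFD17 against Ctrl became 13 with equal neutrophil markers, 11 with no filter, 24 at 1.5-fold, 1 at a coefficient of 0.4 and 0 by the Wald test. The 6 in FR17 against Ctrl became 15 at 1.5-fold, 1 at a coefficient of 0.4 and 0 by the Wald test, and the 8 in FR17 against TP5 became 20, 1 and 0. The 26 in FR17 against sFD17 became 56 at 1.5-fold, 4 at a coefficient of 0.4 and 17 by the Wald test. Their balance of 10 higher and 16 lower became 20 and 2 with library size alone and 23 and 2 with equal neutrophil markers. The 7 in sFD17 against TP5 became 24 at 1.5-fold, 4 by the exact test with a dispersion over the 4 libraries, 1 at a coefficient of 0.4 and 0 by the Wald test. The cause of these differences was not tested.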

Other observations

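Redox genes outside the oxidase were also compared between the assembling peptides, where more of all genes passed 2-fold than against Ctrl. In FR17 against sFD17, 7 of the 13 genes of the NRF2 system were at least 2-fold lower and 0 higher, beside 22.1% of all tested genes past 2-fold in either direction. They were Slc7a11 at −2.13 on the log2 scale, Txnrd1 at −1.41, Mafk at −1.33, Nfe2l2 at −1.16, Osgin1 at −1.14, Nqo1 at −1.02 and Bach1, a repressor of Hmox1, at −1.01. With library size alone 1 of the 13, Slc7a11 at −1.67, was past 2-fold, so this count rests on the scaling. Genes with at least 400 counts in every library had a median of −0.31 in this comparison, and all tested genes 0.07. Hmox1 itself was −0.24.

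In FR17 against sFD17, 7 of 13 genes of the peroxiredoxins and thioredoxins were higher and 6 lower. Of 12 genes for glutathione synthesis and use 4 were higher and 8 lower, beside 8776 of all 16369 tested genes higher. With library size alone 8 of the 13 and 6 of the 12 were higher, and with equal neutrophil markers 9 and 7, so these tallies rest on the scaling. Prdx1 was 1.12 and Prdx4, the peroxiredoxin of the endoplasmic reticulum, 1.38, while Prdx5 was −0.99, Gsr, glutathione reductase, −1.07 and Glrx, a glutaredoxin, −1.18. The values of Gsr, Glrx and Prdx1 with library size alone were −0.61, −0.72 and 1.58, so the calls of Gsr and Glrx rest on the scaling. Mgst3 was 2.22, or 2.67 with library size alone, Gpx3 was 1.39, and the biliverdin reductases Blvra and Blvrb were 1.79 and 1.28. The summed macrophage markers relative to Ctrl were 0.50 in sFD17 and 1.23 in FR17, and their part in these values was not tested. Glrx, Mafk and Bach1 were named after their values were seen.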
